A study of Paramacrobiotus metropolitanus with 7 samples.

Results

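The results below are about 3 SAHS transcripts of the tardigrade Paramacrobiotus metropolitanus, PARRI_0012415.t1, PARRI_0001332.t1 and PARRI_0017439.t1, and about their levels in females and males. They are 3 of the 10 transcripts that the study annotated as SAHS from earlier work on tardigrade genomes, and 3 of 26306 transcripts in the deposited expression matrix. They were picked by name for their values in these same libraries, so their differences between the sexes are given as a description, without a test. Whole-body poly A-selected RNA was sequenced from 3 female and 4 male libraries, each from a tube of pooled adults of the TYO strain that had been raised apart from egg and sexed by their gonads. No age, genotype or treatment separates the groups in the labels, and no desiccation is stated for these tubes. Nothing states that the tubes of a sex came from separate cultures, so the spread between libraries may be partly technical.

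SAHS stands for secretory abundant heat soluble. These proteins are known from tardigrades, carry a signal for secretion, fold into a barrel like that of fatty acid-binding proteins and stay soluble on heating. They were found in a search for proteins that could protect the animals in anhydrobiosis, the survival of nearly complete drying, and they are thought to act outside the cytosol. CAHS proteins are the cytosolic counterpart. What any single SAHS protein of P. metropolitanus does is not known from the files, and the identifiers are used as names here.

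Levels are TPM, a measure of transcript abundance adjusted for length and for the size of the library, which the authors rescaled between libraries by the TMM method. After that rescaling the 7 libraries summed to between 891117 and 1127677. TPM keeps no sequencing depth, so precision is given as the SD over libraries. In whole animals, fewer cells that express a gene and less RNA per cell cannot be told apart. The DMRT ortholog PARRI_0003090.t1, which the study describes as male-induced in these same libraries and which is therefore no independent check of the sex labels, lay between 0.163 and 1.16 TPM in females and between 15.4 and 73.4 TPM in males.

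The sexes did not look alike in each of the 3 transcripts. PARRI_0012415.t1 was higher in every female library than in any male library, whereas for PARRI_0001332.t1 and PARRI_0017439.t1 the libraries of the sexes overlapped. The description as genes with sex differences therefore held without overlap for 1 of the 3. Among all 18420 tested transcripts, 25.9% had every female library above every male library and 28.1% had the opposite, and nothing is read from the count of 1 against that background because the transcripts were chosen on these values.

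PARRI_0012415.t1 had 283 TPM in female library 1, 1034 TPM in female library 2 and 436 TPM in female library 3. In males it had 47.3, 61.7 and 57.7 TPM in libraries 1 to 3 and 243 TPM in library 4. Female library 2 was the highest, and the gap between the sexes lay between female library 1 and male library 4. The female mean was 584 ± 397 TPM (SD, n = 3) and the male mean 102 ± 93.7 TPM (SD, n = 4), a ratio of female to male means of 5.71. The fit across all tested transcripts on log2(TPM + 0.1) gave a male-minus-female log2 difference of -2.65 with a standard error of 0.64. Male library 4 weighed on the size of the ratio, which was 10.5 without it (55.6 TPM in the other males), and female library 2 did so in the other direction, with a ratio of 3.51 without it. What set male library 4 apart from the other males was not tested.

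Both sexes varied widely in this transcript. The highest library was 3.65 times the lowest in females and 5.13 times the lowest in males. The SD of its log2 level among males was 1.08, and 11.9% of tested transcripts had a larger one. Among females the SD was 0.95, and 28.9% had a larger one. Weakly expressed transcripts are counted in these shares, and no comparison was made with transcripts of like level. The authors' mean normalized count was 1864 in females and 313 in males. For a library with that many reads, the Poisson counting error would be 2.32% and 5.65% from the counting of reads alone, which says nothing of where the spread between tubes comes from.

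PARRI_0001332.t1 was the most abundant of the 3. It had 1766 TPM in female library 1, 767 TPM in female library 2 and 302 TPM in female library 3. In males it had 1775, 927, 1305 and 1067 TPM in libraries 1 to 4. Female libraries 2 and 3 lay below all males, while female library 1 was almost level with the highest male library. The female mean was 945 ± 748 TPM (SD, n = 3) and the male mean 1268 ± 372 TPM (SD, n = 4), a ratio of male to female means of 1.34. The male-minus-female log2 difference was 0.73 with a standard error of 0.57. The median of this difference over all tested transcripts was 0.50 rather than 0, so that PARRI_0001332.t1 stood 0.23 above the median transcript. Over transcripts averaging at least 5 TPM the median was 0.03. The height of PARRI_0001332.t1 above the median thus depended on whether weakly expressed transcripts were counted. Without female library 1 the ratio was 2.37 and the sexes no longer overlapped, and without female library 3 the means were 1267 TPM in females and 1268 TPM in males.

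The spread of PARRI_0001332.t1 lay mostly in females. The female libraries differed by 5.86 times and the male libraries by 1.91 times. The SD of the log2 level was 1.28 in females and 0.41 in males. A larger SD was found for 19.4% of tested transcripts in females and for 52.5% in males, again with weakly expressed transcripts counted. With authors' mean normalized counts of 3080 in females and 4013 in males, counting error would be 1.80% and 1.58%.

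PARRI_0017439.t1 was the weakest of the 3. It had 20.5 TPM in female library 1, 108 TPM in female library 2 and 136 TPM in female library 3. In males it had 80.8, 35.2, 83.5 and 27.3 TPM in libraries 1 to 4. The lowest and the highest of the 7 libraries were both female, so that the male range lay inside the female range. The female mean was 88.1 ± 60.3 TPM (SD, n = 3) and the male mean 56.7 ± 29.6 TPM (SD, n = 4), a ratio of female to male means of 1.55. The male-minus-female log2 difference was -0.41 with a standard error of 0.70, and it changed sign to 0.10 without female library 3. Without female library 1 the ratio of female to male means was 2.15 and the sexes did not overlap. The authors' mean normalized count was 214 in females and 126 in males, for which counting error would be 6.84% and 8.91%.

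**Figure D1:**
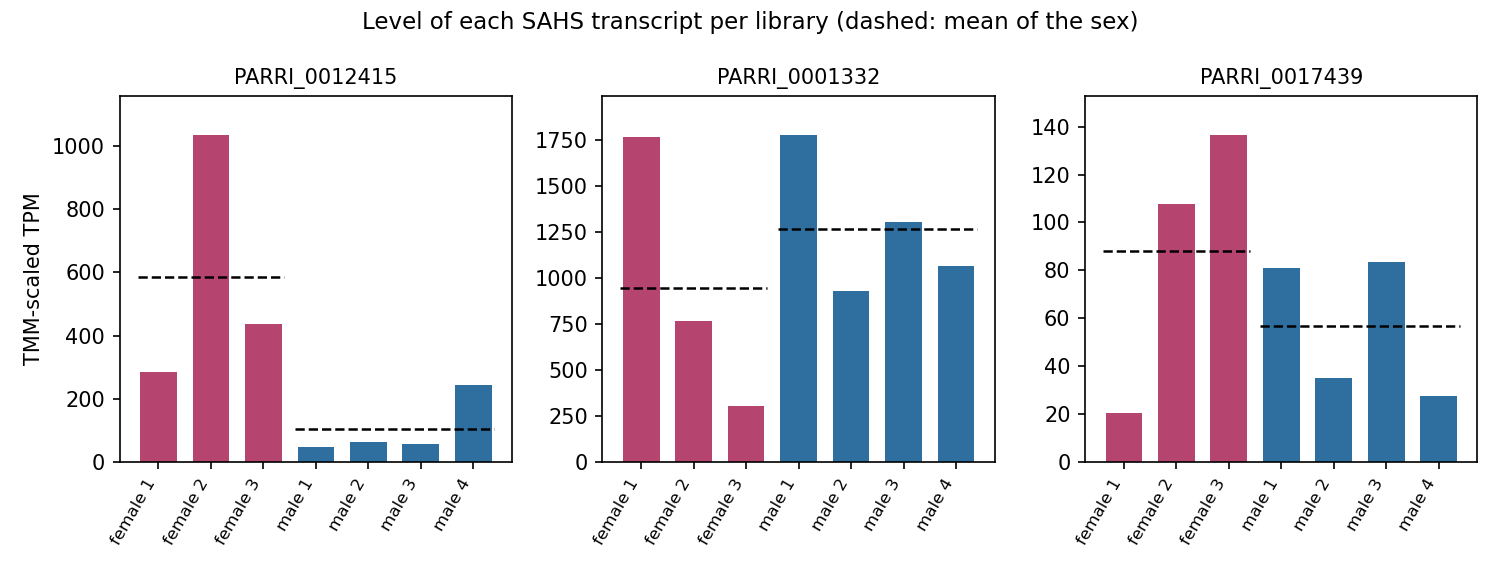
Bars give the TMM-scaled TPM of PARRI_0012415, PARRI_0001332 and PARRI_0017439 in 3 female and 4 male libraries, each panel on its own axis from 0, and dashed lines give the mean of a sex. The female bars of PARRI_0012415, from 283 to 1034 TPM, are all above the male bars, whereas the bars of the sexes overlap for the other transcripts.

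The female libraries were ordered differently in the 3 transcripts. Female library 1 was the highest female library for PARRI_0001332.t1 and the lowest for PARRI_0012415.t1 and PARRI_0017439.t1. Among the 10 SAHS transcripts, female library 1 was the highest of the females in 5 and the lowest in 5. Over all tested transcripts it was the highest in 29.9% and the lowest in 55.2%. Among males, library 4 was the highest library for PARRI_0012415.t1 and the lowest for PARRI_0017439.t1. Leaving out female library 1 therefore moved the male-minus-female log2 differences of PARRI_0001332.t1 and PARRI_0017439.t1 in opposite directions, to 1.35 and -1.26.

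The other SAHS transcripts set these levels in scale. PARRI_0001327.t1 dominated the family, with a female mean of 9711 ± 5883 TPM (SD, n = 3) and a male mean of 11129 ± 6895 TPM (SD, n = 4). It was among the 11 most abundant transcripts of every library. PARRI_0001330.t1 followed with 1290 ± 857 TPM (SD, n = 3) and 1432 ± 580 TPM (SD, n = 4). At the other end, PARRI_0001328.t1 had means of 63.3 ± 26.6 TPM (SD, n = 3) for females and 64.0 ± 9.04 TPM (SD, n = 4) for males. PARRI_0001329.t1 had 17.1 ± 9.88 TPM (SD, n = 3) and 18.5 ± 16.9 TPM (SD, n = 4). Reads that fit more than one SAHS transcript would have been divided among them by the quantification, and this was not checked. For these 4 transcripts the difference between the means was smaller than the SD of either sex.

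By mean over all libraries, PARRI_0001332.t1 was the third, PARRI_0012415.t1 the fourth and PARRI_0017439.t1 the eighth of the 10. PARRI_0012415.t1 was between 3rd and 5th in the female libraries and between 5th and 9th in the male libraries. The ranges met at 5th place, in female library 1 and male library 4. PARRI_0001332.t1 stayed between 2nd and 4th in every library, and PARRI_0017439.t1 between 7th and 9th. Neighbours in this order were often within the spread between libraries, as for PARRI_0001330.t1 and PARRI_0001332.t1, whose ranges overlapped in both sexes.

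**Figure D2:**
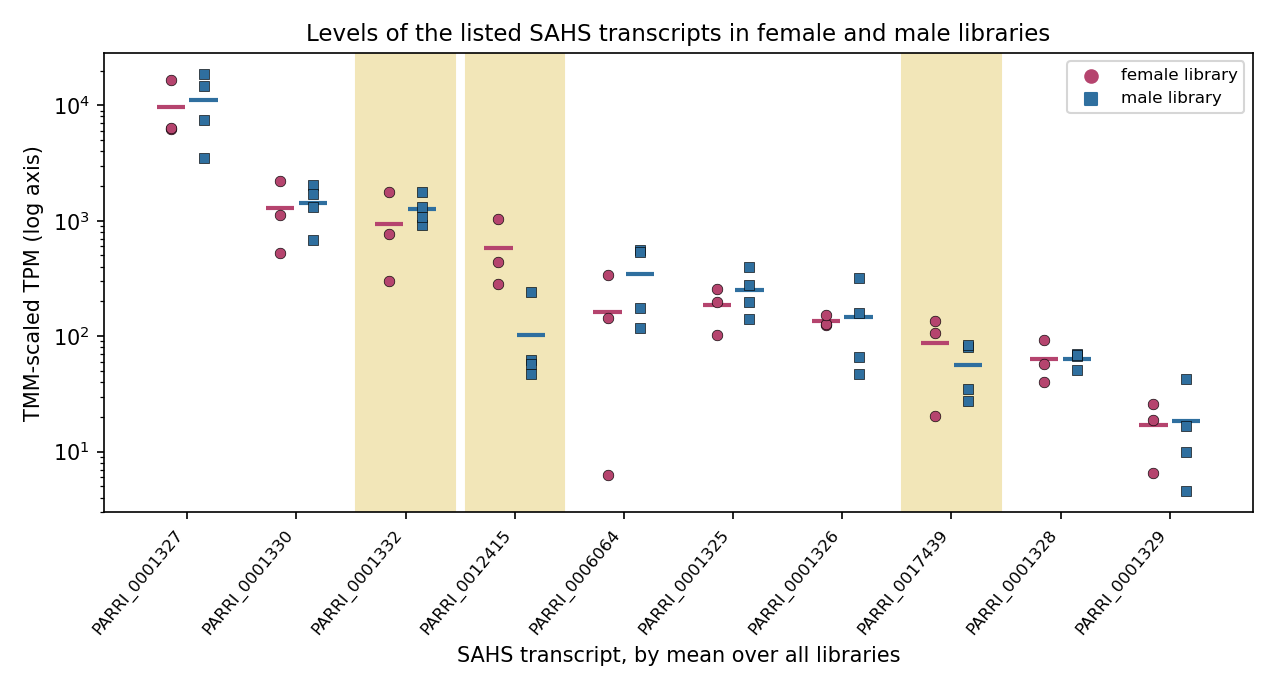
Points give the TMM-scaled TPM of the 10 SAHS transcripts in each of 3 female libraries (circles) and 4 male libraries (squares) on a log axis, short lines give the mean of a sex, and shading marks the 3 transcripts described here. PARRI_0012415 is the transcript whose circles and squares do not overlap.

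None of the 7 other SAHS transcripts passed a limma FDR of 0.05 between the sexes, and none had an unadjusted p under 0.05 (0 of 7 in both cases). The share of all tested transcripts that passed was 49.3%, 23.9% towards females and 25.3% towards males. An unadjusted limma p under 0.05 was found for 10685 of the 18420 tested transcripts. The 7 were left of the 10 after the others were picked for their values in these same libraries. The count of 0 of 7 is thus partly set by that choice, and nothing is read from it against all tested transcripts. The median of the male-minus-female log2 differences of the 10 was 0.09, against 0.50 over all tested transcripts. Over transcripts averaging at least 5 TPM, as each of the 10 did, the median was 0.03. The distance from 0.50 is therefore not read as a shift of the family. Of the 10, 6 had a positive difference and 4 a negative one. By size alone, PARRI_0006064.t1 differed more between the sexes than PARRI_0001332.t1 and PARRI_0017439.t1, with a male-minus-female log2 difference of 2.05 at a standard error of 1.26 (limma FDR 0.20). It is named after its values were seen, and its female libraries ranged from 6.29 to 338 TPM.

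Summed over the 10 transcripts, SAHS levels were 21457, 9818 and 8275 TPM in female libraries 1 to 3. In male libraries 1 to 4 the sums were 19822, 5702, 22817 and 10932 TPM, so that the sexes overlapped. The sum followed PARRI_0001327.t1, which held between 61.4% and 82.0% of it. PARRI_0012415.t1 held 1.32%, 10.5% and 5.27% of the sum in female libraries 1 to 3. It held 0.239%, 1.08%, 0.253% and 2.22% in male libraries 1 to 4. As a share of the family, this transcript was thus higher in male library 4 than in female library 1, although its level was not.

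PARRI_0001332.t1 held between 3.65% and 8.23% of the sum in females and between 5.72% and 16.3% in males. PARRI_0017439.t1 held between 0.0954% and 1.65% in females and between 0.250% and 0.617% in males. The shares of both transcripts overlapped between the sexes. The 3 transcripts together made up between 9.65% and 19.4% of the SAHS level in females and between 6.34% and 18.0% in males.

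**Figure D3:**
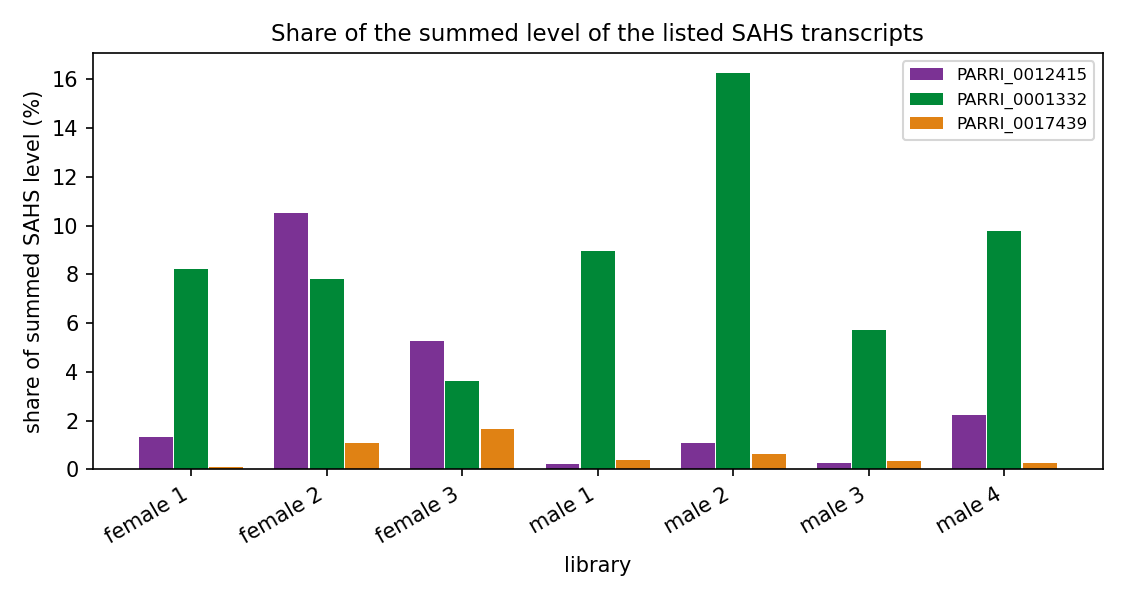
Bars give the share, in %, of the summed level of the 10 SAHS transcripts that PARRI_0012415, PARRI_0001332 and PARRI_0017439 held in each of the 7 libraries. PARRI_0012415 reaches 10.5% in female library 2 and stays at or below 2.22% in males, and PARRI_0001332 is highest in male library 2, at 16.3%.

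Ratios within a library do not depend on the scaling between libraries. The ratio of PARRI_0001332.t1 to PARRI_0001330.t1 lay between 0.568 and 0.796 in females and between 0.760 and 1.37 in males. It differed by 2.40 times over the 7 libraries, whereas PARRI_0001332.t1 itself differed by 5.88 times. The ratio of PARRI_0012415.t1 to PARRI_0001332.t1 was 0.160, 1.35 and 1.44 in female libraries 1 to 3. In males it was at most 0.227, in library 4, and at least 0.0267, in library 1. The ranges of the sexes overlapped through female library 1 and male library 4.

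The profile over the 7 libraries was then compared with those of other transcripts. Each profile of log2(TPM + 0.1) was centred on its mean, and likeness was measured as the root mean square difference over the 7 libraries, in log2 units, over transcripts averaging 5 TPM or more. It is a description, in which the points share their libraries and the sex difference itself. The SAHS transcript closest to PARRI_0001332.t1 was PARRI_0001330.t1, at 0.36, and 0.620% of the 13230 transcripts outside the family were closer. The median transcript was at 1.21. Transcripts of other listed families were among the closer ones, with PARRI_0002748.t1 of the AMNP list at 0.27 and PARRI_0002228.t1 and PARRI_0002120.t1 of the CAHS list at 0.29 and 0.34. PARRI_0017439.t1 was closest within the family to PARRI_0001329.t1, at 0.54, with 0.385% of transcripts closer, and to PARRI_0001325.t1, at 0.64. PARRI_0012415.t1 had no close profile in the family. Its nearest SAHS transcript, PARRI_0001328.t1, was at 1.67, about the distance of the median transcript outside the family, at 1.66. Of all listed transcripts the nearest to PARRI_0012415.t1 was PARRI_0005796.t1, the Dsup candidate that the paper names PmDsup, at 0.94. This was not a close profile either, since 9.20% of the transcripts outside the family were closer. These 4 transcripts of other lists and PARRI_0001325.t1 were named after their values were seen. The 3 transcripts were far from each other, at 1.59 between PARRI_0001332.t1 and PARRI_0017439.t1, 1.72 between PARRI_0012415.t1 and PARRI_0017439.t1 and 2.12 between PARRI_0012415.t1 and PARRI_0001332.t1.

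Outside the family, the nearest to PARRI_0012415.t1 were PARRI_0015838.t1 at 0.39, PARRI_0001150.t1 at 0.42 and PARRI_0014245.t1 at 0.52. They were weakly expressed, with female means of 21.0, 19.6 and 10.2 TPM and male means of 5.13, 3.96 and 2.74 TPM. In all 3 of them, as in PARRI_0012415.t1, male library 4 was the highest male library. They were selected for likeness over these same libraries, so nothing is read from this. Among all tested transcripts, male library 4 was the highest male library in 29.4%. The nearest to PARRI_0001332.t1 were PARRI_0012736.t1 at 0.14, PARRI_0010325.t1 at 0.18 and PARRI_0021959.t1 at 0.19. PARRI_0012736.t1 had 59.5, 25.4 and 11.2 TPM in female libraries 1 to 3 and between 39.6 and 60.9 TPM in males. The nearest to PARRI_0017439.t1 were PARRI_0017182.t1 at 0.24, PARRI_0000626.t1 at 0.25 and PARRI_0001502.t1 at 0.29. PARRI_0017182.t1 had 30.3, 153 and 161 TPM in female libraries 1 to 3 and between 36.2 and 137 TPM in males. SAHS transcripts were left out of this search, and none of these 9 transcripts is in the CAHS or AMNP lists of the study. Those lists hold only 13 and 36 transcripts, so nothing is read from their absence.

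Of the 10 SAHS transcripts, 7 carry locus numbers from 1325 to 1332, PARRI_0001332 among them, and PARRI_0012415 and PARRI_0017439 stand apart in the numbering. Each of the 3 loci has 1 transcript in the matrix. The transcripts at the 5 locus numbers on each side, other than SAHS transcripts, were not used to choose the 3, and their sex differences were tested with limma over all tested transcripts. Below PARRI_0001332 this left PARRI_0001331 alone, since the next 4 numbers are SAHS loci and are counted among the 7 other SAHS transcripts above. Coordinates were not used here, so whether successive numbers are neighbours in the genome was not checked. Of 18 tested transcripts at these flanking numbers, 3 were higher in females and 2 higher in males at an FDR of 0.05, where 49.3% of all tested transcripts passed. Without female library 1 the number was 11, of which 8 were higher in males, and 58.2% of all tested transcripts passed.

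Next to PARRI_0012415 in the numbering, PARRI_0012416.t1 was also higher in females, with a female mean of 25.6 ± 4.02 TPM (SD, n = 3) against a male mean of 9.40 ± 3.21 TPM (SD, n = 4). Its lowest female library, at 22.1 TPM, was above its highest male library, at 13.6 TPM. The female-minus-male log2 difference was 1.49 with a standard error of 0.33 and a limma FDR of 0.0076, and the FDR stayed between 0.0061 and 0.032 under all 16 alternatives. Male library 4 did not stand out in it, at 7.82 TPM. PARRI_0012411.t1, 4 numbers below, had a female mean of 7.41 ± 2.21 TPM (SD, n = 3) and a male mean of 14.5 ± 3.13 TPM (SD, n = 4), at a limma FDR of 0.041. That call was kept in 6 of 16 alternatives, with an FDR between 0.029 and 0.11, and it was lost when any library other than female library 1 was left out.

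At 3 numbers above PARRI_0001332, both transcripts of PARRI_0001335 were much higher in females. PARRI_0001335.t1 had 72.7, 151 and 195 TPM in female libraries 1 to 3 and 2.59, 4.76, 2.05 and 2.32 TPM in male libraries 1 to 4. PARRI_0001335.t2 had a female mean of 165 ± 64.7 TPM (SD, n = 3) and a male mean of 2.64 ± 1.74 TPM (SD, n = 4). The female-minus-male log2 difference was 5.49 ± 0.43 (SE, limma FDR 0.00028) for the first and 6.09 ± 0.56 (SE, limma FDR 0.00036) for the second. Reads shared by the transcripts of one locus may have been divided between them by the quantification. The other tested transcripts flanking PARRI_0001332 did not pass, and their male-minus-female log2 differences went in both directions, from -0.96 to 1.79. Near PARRI_0017439, PARRI_0017443.t1 was the transcript that passed, with a male mean of 14.5 ± 3.82 TPM (SD, n = 4) and a female mean of 0.341 ± 0.499 TPM (SD, n = 3) at a limma FDR of 0.00093, and it was listed at 0 in female library 1.

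**Figure D4:**
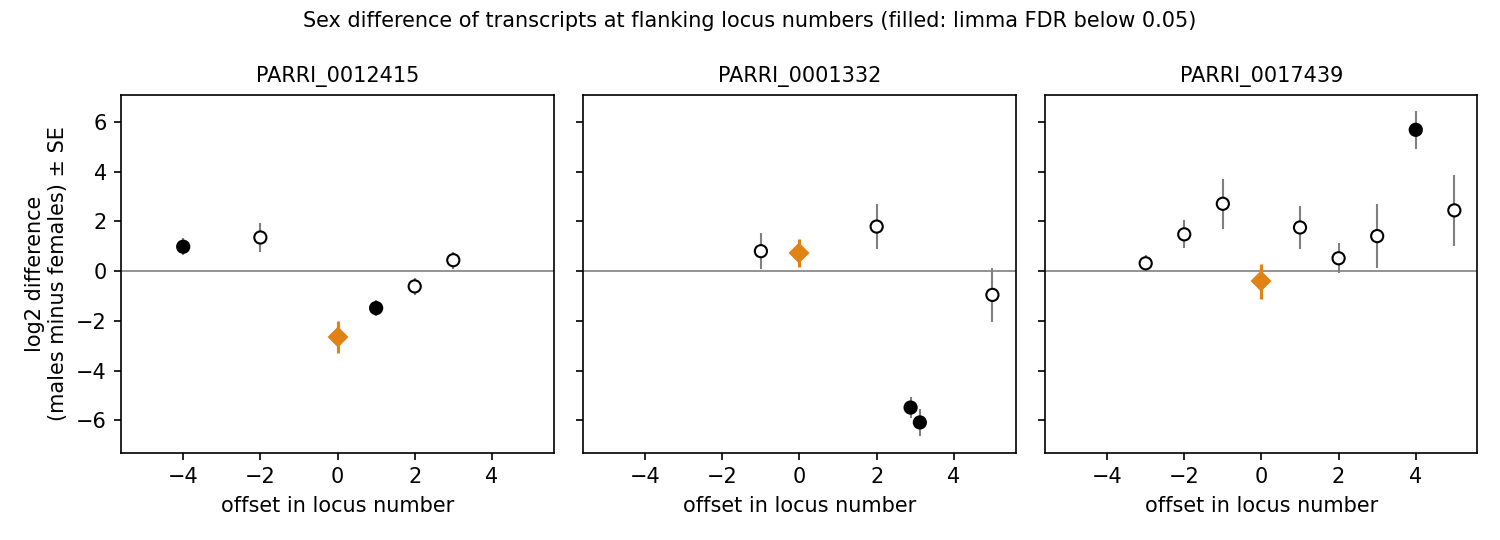
Points give the log2 difference (males minus females) with its standard error for the tested transcripts at up to 5 locus numbers on each side of PARRI_0012415, PARRI_0001332 and PARRI_0017439, filled where the limma FDR was below 0.05, and diamonds give the SAHS transcript itself. Around PARRI_0012415 and PARRI_0001332 the sex differences go in both directions, with PARRI_0001335 at -5.49 and -6.09. All 8 tested transcripts around PARRI_0017439 are above 0, from 0.32 to 5.69 for PARRI_0017443, and 1 of them passed. Among all 18420 tested transcripts, 10846 were above 0.

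Over the scalings and the other pseudocount, the male-minus-female log2 difference of PARRI_0012415.t1 lay between -2.77 and -2.62 and that of PARRI_0001332.t1 between 0.61 and 0.74. That of PARRI_0017439.t1 lay between -0.52 with median-of-ratios scaling and -0.14 with quantile normalization. With 1 library left out that of PARRI_0012415.t1 lay between -3.19 and -2.13. For PARRI_0001332.t1 the range with 1 library left out was 0.08 to 1.35, and for PARRI_0017439.t1 it was -1.26 to 0.10.

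**Figure D5:**
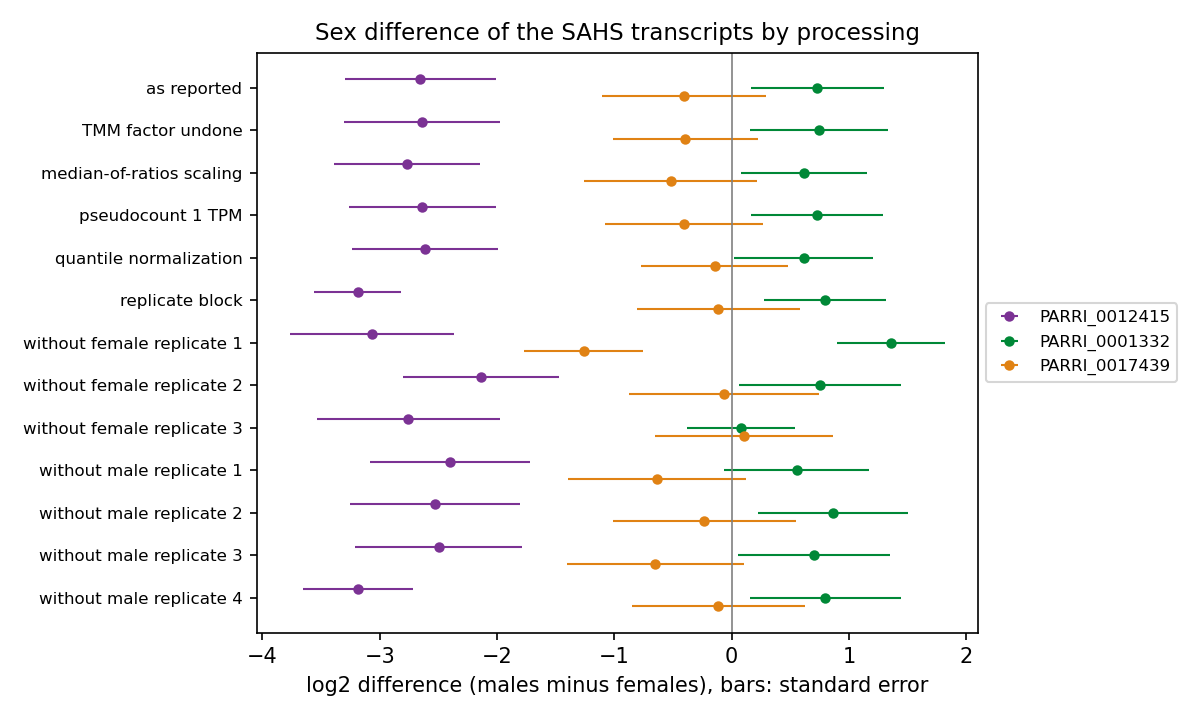
Points give the log2 difference (males minus females) of PARRI_0012415, PARRI_0001332 and PARRI_0017439 as reported and under 12 other settings of scaling, pseudocount, replicate block and libraries, with bars for the standard error. PARRI_0012415 is below 0 in every setting, PARRI_0001332 above 0 in every setting, and PARRI_0017439 is on both sides of 0. Without female replicate 3, PARRI_0001332 is at 0.08 with a standard error of 0.46. The settings re-use the values on which the 3 transcripts were chosen, so nothing is read from a sign that stays the same.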

How the data were processed

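Per the labels and the methods of the study, the authors mapped reads to predicted coding sequences, quantified them with RSEM 1.3.3 and deposited a signal per transcript and library, TPM rescaled by TMM. The authors' table of a DESeq2 1.38.0 comparison was deposited too. Of it, the mean normalized counts per sex (a signal, counts divided by size factors) were used, and its fold changes and p-values were not.

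Sex was the single term of a limma fit (limma 3.58.1, R 4.3.3) to log2(TPM + 0.1) with a prior variance that follows the mean level. Tests were two-sided, with an FDR of 0.05 by the method of Benjamini and Hochberg over 18420 transcripts with at least 1 TPM in at least 3 libraries. The fit was tested on simulated data. Other steps used Python 3.11.15, pandas 2.3.3 and NumPy 2.4.6. P-values set the difference between the sexes against the spread between tubes, moderated by that prior variance. They do not cover a spread between cultures, since nothing states that the tubes came from separate ones.

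The 3 transcripts, the lists and the tests were chosen with earlier results of these data known. Beyond the 3, the text names the 2 most and 2 least abundant SAHS transcripts, the 3 nearest profiles of each, flanking transcripts past the FDR, and PARRI_0003090.t1. A few others, marked where they appear, were picked for their values. Alternatives were the pseudocount, filters, scalings, priors, a replicate block and leaving out each library. None of the 24899 loci was found in the RefSeq gene table (assembly Prichtersi_v1.0), so no sequence or coordinate is given.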

Additional observations from a re-analysis of the deposited data

Results flagged for a closer look

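In males, the only sex with enough libraries, 25 named transcripts were examined for a library far from the other 3, which chance gives in about 5% of groups of 4. Among all 18420 tested transcripts the share was 6.71%, and 1.97% had male library 4 far above the others. PARRI_0012415.t1 was far higher in male library 4, at 243 TPM, with a gap to the nearest library of 0.926 of the whole range. That transcript was chosen on its values in these libraries, so its gap is a description and not a test. PARRI_0015838.t1, at 12.4 TPM, and PARRI_0001150.t1, at 9.73 TPM, also stood apart in male library 4, and both had been named for their likeness to PARRI_0012415.t1. On the log2 scale their gaps were 0.720 and 0.803 of the range, below the critical value of 0.829, and that of PARRI_0012415.t1 was 0.838. PARRI_0001328.t1 was far lower in male library 2, with 50.5 TPM, than in the other males, which lay between 67.5 and 69.4 TPM.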

How the results depend on the processing

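Over the alternatives, the number of transcripts past an FDR of 0.05 lay between 6260 and 10490, against 9072. The higher-in-males share was most moved by a filter at a mean of 5 TPM, with 4155 calls in females and 3005 in males, and by quantile normalization, with 4367 and 3470. The male-minus-female median over all transcripts, on the log2 scale, was then 0.03 and 0.01. The number of the 10 SAHS transcripts that passed was 1, and 1 to 2 with 1 library left out, the higher without female replicate 1. The list holds the 3 transcripts that were chosen on these values, so this number supports nothing about them. The number of flanking transcripts that passed was 4 to 11 with 1 library left out, the highest without female replicate 1. The difference of PARRI_0017439.t1 changed sign to 0.10 without female replicate 3, and lay between -1.26 and 0.10 over the libraries left out.

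With replicate number as a block, 7586 transcripts passed, 1 SAHS transcript and 6 flanking transcripts among them. The male-minus-female log2 differences were then -3.19 for PARRI_0012415.t1, 0.80 for PARRI_0001332.t1 and -0.11 for PARRI_0017439.t1. Male library 4 is alone in its block, so this fit leaves it out in effect. Deviations of same-numbered libraries from their sex means correlated at -0.013, 0.028 and 0.253 for numbers 1 to 3, across transcripts, which are not independent, and female library 1 was closest to male library 4, at 0.259. The libraries were therefore not treated as pairs. TPM keeps no depth, so counting error could be judged only from the authors' mean normalized counts.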
